A study of Rattus norvegicus with 48 samples.

Results

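Kidneys of rats on a low-salt diet were compared after an injection of an antibody against marinobufagenin and after an injection of a control antibody. The comparison used 12 of the 48 arrays of the study, chosen by their labels for tissue and diet, with 6 arrays per group and 1 animal per array. All 12 animals were male Dahl salt-sensitive rats (SS/JrHsd), an inbred strain that becomes hypertensive when fed a diet rich in salt, and all ate 0.1% NaCl. The antibody group received the anti-marinobufagenin monoclonal antibody and the control group mouse IgG1 of the same isotype, each as 1 intraperitoneal dose of 50 µg/kg. The labels give a start of the diet at 6 weeks of age, a diet of 8 weeks, treatment in diet week 7 at 15 weeks of age, and an age of 16 weeks. These ages and diet weeks do not add up, so the time between injection and sampling is uncertain. The other arrays, used here only for contrast, came from kidneys on 8% NaCl and from the left ventricles of the same animals. Both groups thus carried an injected antibody, and no uninjected animals are among the samples used here.

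Marinobufagenin is an endogenous cardiotonic steroid. It binds the Na/K-ATPase, the pump that drives sodium reabsorption along the renal tubule, and can both inhibit pumping and start signalling through the pump. In Dahl salt-sensitive rats it is known to be raised by a salt load, and it has been linked to fibrosis through the transcription factor Fli1, a repressor of collagen genes, and through the TGF-β pathway. The comparison asks what the antibody does to renal transcripts without a salt load.

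Transcript levels come from single-colour Illumina bead arrays with 22523 probes, of which 13793 could be given a gene name. After background correction and quantile normalization, 10518 probes detected on 6 or more of these 12 arrays entered the tests, and 7810 of them, for 7673 genes, had a name. Levels below are normalized log2 intensities. They compare 1 probe across arrays and not 1 gene with another, and in whole-tissue RNA a lower level through fewer cells of a type cannot be told apart from less RNA per cell. Kidney genes were present: uromodulin (Umod), the water channel Aqp2, the phosphate transporter Slc34a1 and the thiazide-sensitive cotransporter Slc12a3 were detected on 12 of 12 kidney arrays. Of 5 cardiac genes, Myh6 and Tnni3 were detected on 0 of 12 kidney arrays, Myl2 on 3, Actc1 on 5 and Tnnt2 on 12, and in the left ventricle all 5 were detected on 12 of 12.

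The arrays of the antibody group were dimmer before normalization. The log2 median intensity was 7.91 ± 0.18 (SD, n = 6) in controls, from 7.77 to 8.27, and 7.58 ± 0.12 (SD, n = 6) in antibody-treated animals, from 7.41 to 7.73. The groups did not overlap (difference -0.33, exact two-sided permutation p = 0.00216 over 924 splits, adjusted p = 0.00649 over 3 measures). The log2 95th percentile of intensity was lower by 0.56 (-0.56, exact permutation p = 0.0195, adjusted p = 0.0292), with overlap between the groups, and without control replicate 1 this measure no longer passed (-0.43, adjusted p = 0.0519, exact permutation test). The number of detected probes was 10585 ± 334 (SD, n = 6) in controls and 10332 ± 304 (SD, n = 6) with the antibody, a difference within the spread (exact permutation p = 0.208). Brightness therefore moved with the treatment, and its part in the differences between groups was examined only as a covariate.

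One array stood apart from the other 11. Control replicate 2 lay at 71.8 on the first principal component, which held 44.2% of the variance, whereas the other arrays lay between -12.4 and 6.05. On this array 61.5% of the tested probes lay outside the range of the other 11, against 7.02% to 18.6% for each other array. Its mean correlation with the others was 0.933, and those of the others were 0.976 to 0.983. The genes in the following sentences were chosen after their values were seen. Egr1, an immediate early transcription factor, stood at 12.97 on this array and at 8.01 to 11.47 on the others. Junb (12.97 against 10.24 to 11.03), Atf3 (8.83 against 5.83 to 6.91) and Slc12a3 (12.48 against 9.40 to 10.46) were also high there. Golph3, a Golgi phosphoprotein, was low at 5.88 against 10.37 to 11.16. On the second component (17.5% of the variance) antibody replicate 1, at -11.6, lay among the controls (-20.5 to 1.72). Antibody replicate 4, at -1.12, was also within the control range, and the other 4 antibody arrays lay between 10.03 and 23.4. Results are given with all 12 arrays and without control replicate 2 and antibody replicate 1. The second of these was singled out by its place relative to the groups being compared, so its removal favours a difference between them. Values and counts without the 2 arrays are therefore a description and support no difference.

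**Figure D1:**
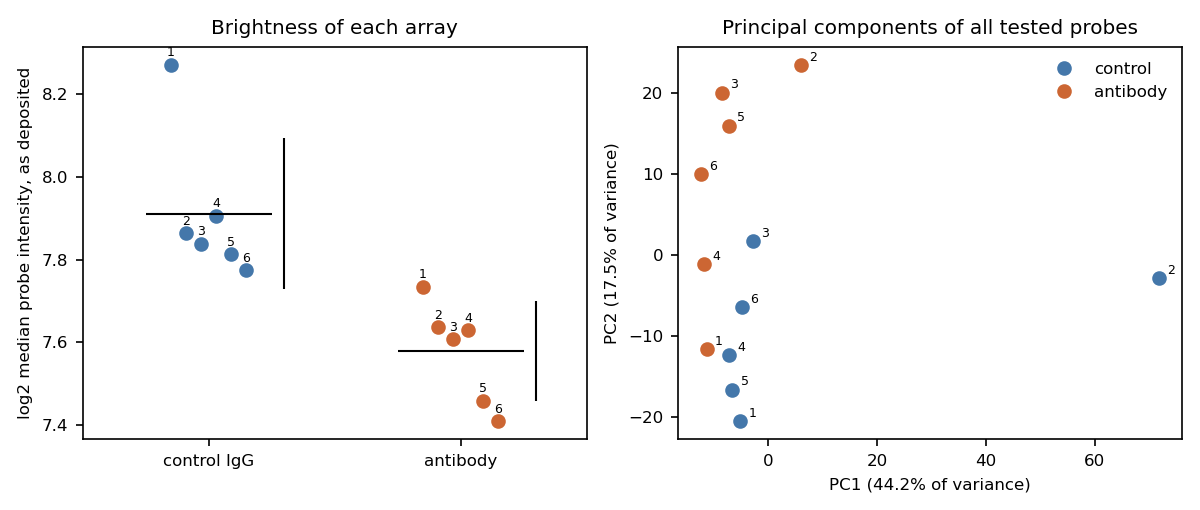
Left, log2 median probe intensity of each array as deposited, by group, with the replicate number beside each point, the group mean as a horizontal line and the SD as a vertical line (n = 6). Right, the first against the second principal component of the 10518 tested probes. The antibody arrays (7.41 to 7.73) all sit below the controls (7.77 to 8.27), and control replicate 2 lies alone at the right.

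With all 12 arrays no probe passed. Of 10518 probes, 0 (0%) had a Benjamini-Hochberg adjusted p below 0.05 in limma, and the smallest adjusted p was 0.240. At an unadjusted p below 0.05 there were 1481 probes (14.1%), 611 higher with the antibody (5.81%) and 870 lower (8.27%). The typical shift was small, with a median log2 fold change of 0.01 and a median SE of 0.15. Differences over 2-fold were shown by 12 probes upward and 8 downward. In 121 probes (1.15%) the groups did not overlap, 58 with the antibody higher (0.551%) and 63 lower (0.599%).

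The count of passing probes depended on 2 arrays. Without antibody replicate 1 alone, 62 probes passed (0.589%), 23 higher (0.219%) and 39 lower (0.371%). Without control replicate 2 alone, the array that stood apart, 0 passed (0%). Without both, 781 probes passed (7.43%), 312 higher (2.97%) and 469 lower (4.46%), and 516 of them had a gene name. Weighting arrays by how closely they fitted their group gave 881 (8.38%), 341 higher (3.24%) and 540 lower (5.13%). The weights were estimated with the treatment in the model. They were lowest for the same 2 arrays, 0.0855 for control replicate 2 and 0.457 for antibody replicate 1. The 642 probes that passed both ways are therefore no independent support. Of the 781, 550 had an unadjusted p below 0.05 with all 12 arrays, and 775 had the same sign. The median SD of a probe was 0.27 among controls, 0.16 without replicate 2 and 0.28 without any other control. In the antibody group it was 0.21, with 0.18 without replicate 1 and 0.20 to 0.22 without each of the others.

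Brightness and scaling also mattered. With the log2 95th percentile of each array as a covariate, 0 probes passed with all 12 arrays (1939 at unadjusted p below 0.05, 18.4%) and 0 without the 2 arrays (559, 5.31%). Without the 2 arrays this covariate ran from 11.93 to 12.72 in controls and from 11.19 to 11.60 with the antibody, without overlap. Brightness and treatment can hardly be told apart in that fit, so no conclusion is drawn from its count of 0. When arrays were scaled by their medians in place of quantiles, the median log2 fold change of all probes moved to -0.21, and 635 probes passed (6.04%), 6 higher (0.0570%) and 629 lower (5.98%). The values below are relative to quantile-normalized arrays.

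The 15 named probes with the smallest p in each direction are described next. None passed with all 12 arrays, and all of these had an adjusted p of 0.240 in limma. They were chosen by their p on these arrays, so passing without the 2 arrays or with array weights, which all 30 did, is no independent support. The direction was the same under median scaling for all 30, of which 3 higher and 14 lower ones passed. It was also the same with the brightness covariate for all 30, of which 0 passed. Both fits used the arrays by which the 30 were chosen, so the shared direction is no independent support. Median scaling also moved the median log2 fold change of all probes to -0.21, which favours lower probes. With the covariate and without the 2 arrays, where brightness and treatment can hardly be told apart, Adamtsl4 (-0.08) and Fgf13 (0.17) changed sign. A further 10 higher and 12 lower probes without a gene name ranked among them.

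Among the higher probes, Usp2 and Sgk1 belong to genes that act on the epithelial sodium channel of the distal nephron. Usp2, a deubiquitinase that can stabilise this channel and is under clock control, ranged in controls from 10.93 to 11.62 with a median of 11.19. With the antibody it ranged from 11.49 to 12.47 with a median of 12.11. Only antibody replicate 1 fell within the control range, and the difference was 0.85 (SE 0.16). Sgk1, the aldosterone-induced kinase that raises sodium channel activity, ranged from 12.44 to 13.28 (median 12.79) in controls and from 13.15 to 13.70 (median 13.52) with the antibody. Controls 2 and 6 reached into the antibody range, and the difference was 0.61 (SE 0.15). Without control replicate 2 the differences were 0.83 for Usp2 and 0.68 for Sgk1 (both adjusted p = 0.145, limma). Without both arrays they were 0.95 (adjusted p = 0.0101) and 0.75 (adjusted p = 0.0184).

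The largest difference among these 15 was in Acsm3, a mitochondrial medium-chain acyl-CoA synthetase. Its control levels ran from 5.45 to 6.64 (median 6.14) and its antibody levels from 5.99 to 8.12 (median 7.74). Antibody replicate 1 was the lone antibody array inside the control range, and the difference was 1.38 (SE 0.33). Tspan4, a tetraspanin, ran from 7.99 to 9.87 (median 9.32) in controls and from 9.70 to 10.37 (median 10.26) with the antibody. Control 3 overlapped with the antibody arrays, control 2 was the lowest array, and the difference was 1.01 (SE 0.25). Derl3, a component of endoplasmic reticulum-associated degradation, did not overlap, at 5.90 to 6.61 (median 6.26) in controls and 6.66 to 7.82 (median 7.19) with the antibody (difference 0.97, SE 0.22). Acsm3 and Derl3 were each detected on 4 of 6 control and 6 of 6 antibody arrays, so some of their control values lay near background.

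The flavin monooxygenase Fmo2 ran from 8.97 to 9.60 (median 9.34) in controls and from 9.27 to 10.49 (median 10.29) with the antibody, a difference of 0.78 (SE 0.19). Antibody replicate 1, at the lowest of these antibody values, was again within the control range. Frmd4a, a cell polarity scaffold, was detected on 0 of 6 control and 6 of 6 antibody arrays. It thus met the filter through its antibody arrays alone, so its detection is no support for a difference. Of all probes on the array, 1 was detected on all 6 antibody and 0 control arrays, and 3 were the reverse. The measured means of Frmd4a differed by 0.53 (SE 0.13), and against the lowest detectable signal it was at least 1.26-fold higher. The others were Gatd1 (0.67), Adamtsl4 (0.59), Hoxc9 (0.58), Vom2r47 (0.54), Tas2r7l (0.51), Dolk (0.45), Prmt6 (0.44) and Ceacam1 (0.43). Adamtsl4, Vom2r47 and Ceacam1 were each detected on 4 of 6 control and 6 of 6 antibody arrays. Dolk makes the dolichol phosphate used in protein glycosylation, Prmt6 is an arginine methyltransferase and Hoxc9 a homeobox factor. Across the 15 higher probes the groups overlapped in 7.

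**Figure D2:**
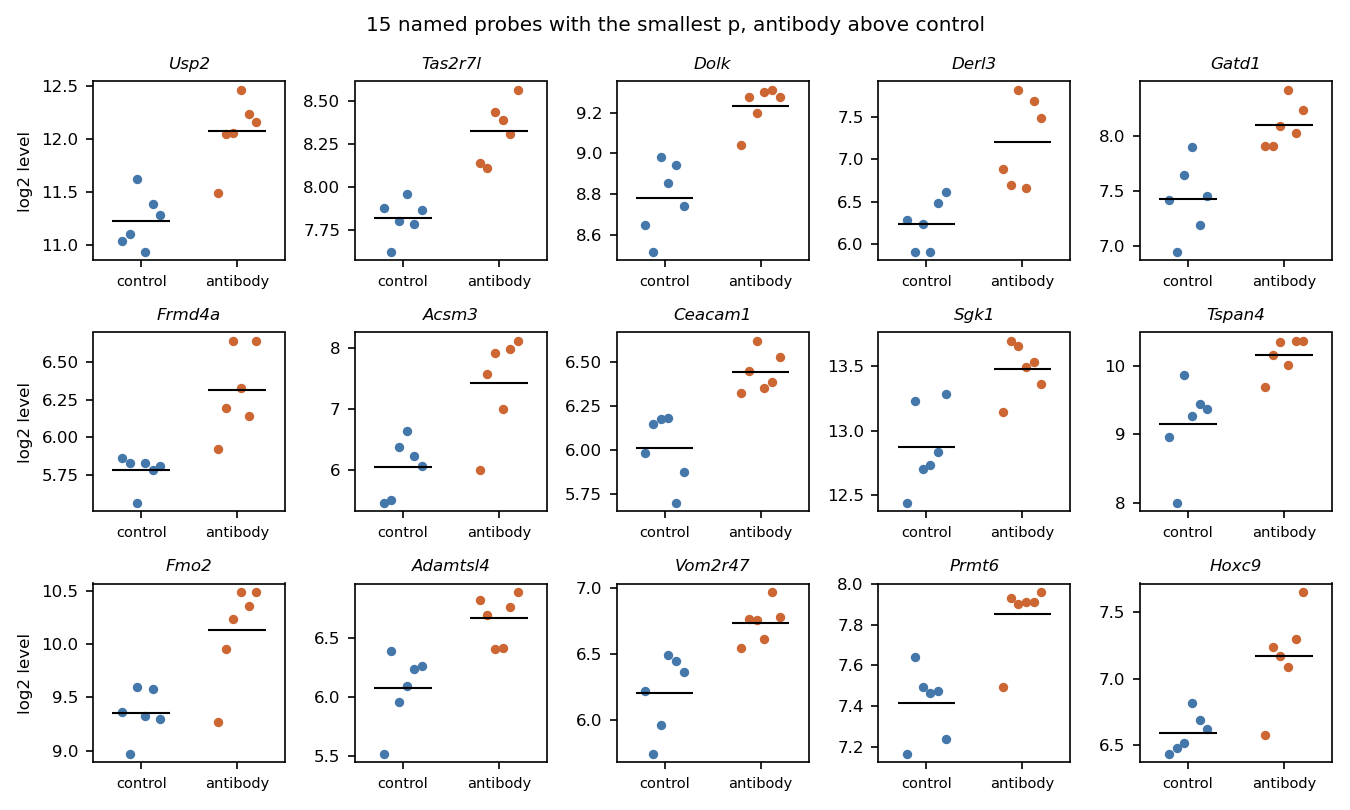
Normalized log2 level of the 15 named probes with the smallest p and a higher mean with the antibody, 1 point per array (6 per group) and the group mean as a line. In Usp2, Acsm3 and Fmo2 a single antibody array, replicate 1, lies within the control range, and in Derl3 the groups do not overlap.

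Among the lower probes, Rnf138, a ubiquitin ligase of the DNA damage response, had one of the largest differences. Controls ran from 6.76 to 7.70 (median 7.31) and antibody arrays from 5.65 to 7.08 (median 6.08). Antibody replicate 1 was the lone antibody array within the control range, and the probe was detected on 6 of 6 controls and 3 of 6 antibody arrays (difference -1.11, SE 0.22). Spetex2b (-1.16, SE 0.25) and Spetex2d (-0.76, SE 0.16) belong to a rat multigene family with near-identical copies, so which copy each probe read is uncertain. Both were detected on 6 of 6 controls, and on 3 and 1 of 6 antibody arrays, and the groups overlapped in Spetex2b alone. Of all probes on the array, 130 were detected on at least 4 more control than antibody arrays, and 22 were the reverse. Fewer detections on the dimmer antibody arrays are thus no separate support for a fall in the lower probes.

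Nrg1, the neuregulin ligand of ErbB receptors, ran from 5.88 to 7.31 (median 6.62) in controls and from 5.28 to 6.19 (median 5.51) with the antibody. It was detected on 5 controls and on 1 antibody array. Antibody replicate 1 was the highest of its group and lay within the control range, and the difference was -1.03 (SE 0.23). Pcsk5, a proprotein convertase, ran from 6.20 to 7.06 (median 6.62) in controls and from 5.31 to 6.46 (median 5.48) with the antibody (difference -0.93, SE 0.22). It was detected on 6 of 6 controls and 2 of 6 antibody arrays, and the groups overlapped. Mdm4, an inhibitor of p53, had the narrowest control range of the 30, 8.52 to 8.63 (median 8.59), and was at 8.08 to 8.50 (median 8.17) with the antibody. Its groups did not overlap, although the difference was only -0.36 (SE 0.09).

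Fgf13, an intracellular FGF family member that binds sodium channels in neurons, was at 6.69 to 7.61 (median 6.80) in controls and 5.87 to 6.49 (median 6.27) with the antibody, without overlap (-0.76, SE 0.17). Ccrl2, a receptor that binds chemerin, was at 6.69 to 7.19 (median 6.91) and 5.94 to 6.93 (median 6.11), with overlap through antibody replicate 1 (-0.66, SE 0.16). The remaining differences were -0.68 for Dcaf10, -0.63 for the zinc finger gene Zfp68, -0.59 for Taf9b, -0.54 for Cep97, -0.49 for Sclt1, -0.47 for Sestd1 and -0.41 for Klhl8. Cep97 and Sclt1 encode centriole proteins, Taf9b a subunit of the basal transcription machinery, and Dcaf10 and Klhl8 substrate adaptors of cullin ubiquitin ligases. The groups overlapped in 6 of the 15 lower probes.

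**Figure D3:**
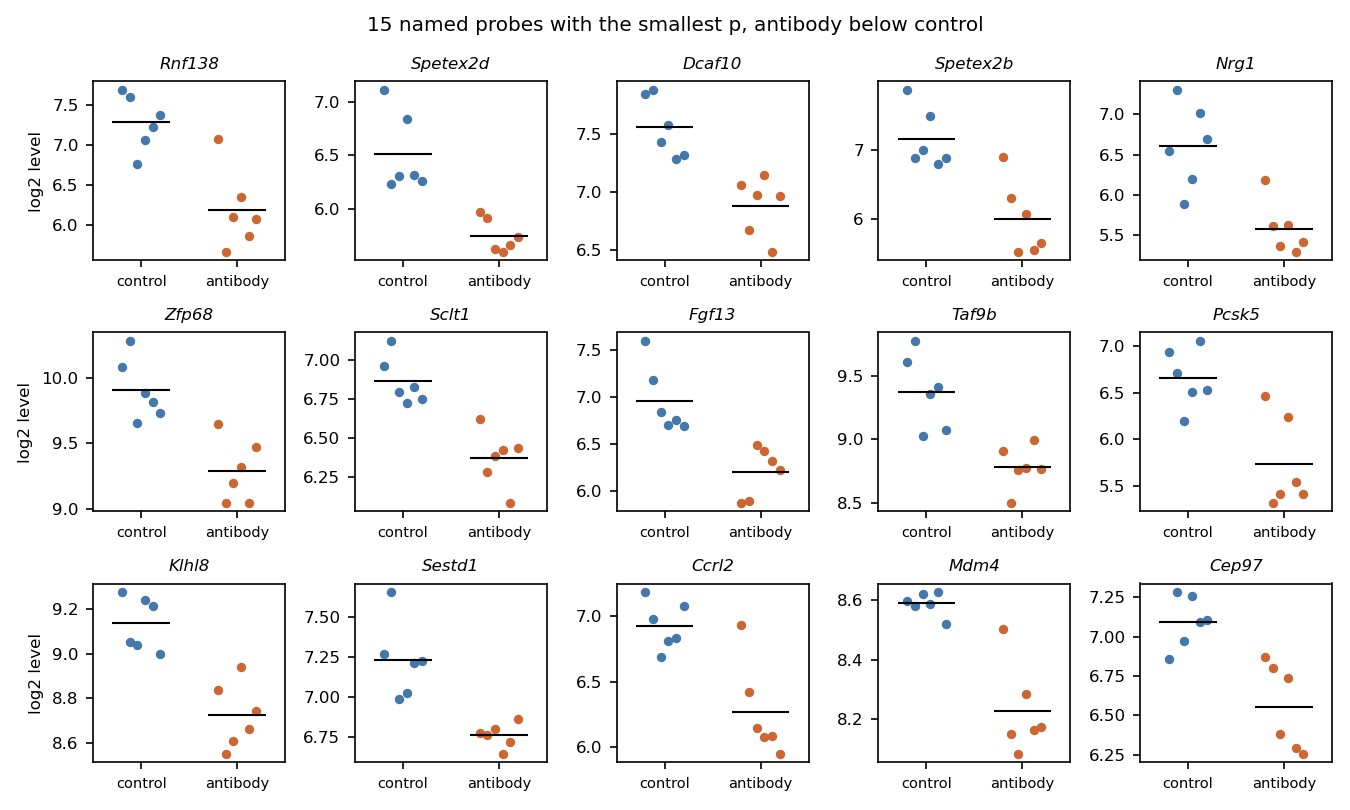
Normalized log2 level of the 15 named probes with the smallest p and a lower mean with the antibody, drawn as 1 point per array (6 per group) with the group mean as a line. In Rnf138 and Ccrl2 antibody replicate 1 lies within the control range, and in Mdm4 and Fgf13 the groups do not overlap.

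The genes nearest to the study's question were looked up one by one. Smad3 was not detected on enough arrays to be tested. Of the 12 that were tested, 0 passed with all arrays. Atp1b1, the pump's β subunit, was at 14.93 to 15.17 in controls and 15.01 to 15.13 with the antibody (0.04, 95% interval -0.13 to 0.21). Fxyd2, the pump's γ subunit, differed by 0.10 (95% interval -0.18 to 0.38), and its second probe by 0.13. Control replicate 2 was the lowest array for Fxyd2, at 13.88.

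Fli1 was at 8.72 to 9.33 (median 8.97) in controls and 8.53 to 9.44 (median 8.67) with the antibody. The groups overlapped widely, and the difference was -0.20 (SE 0.15). Without the 2 arrays it was -0.38 (adjusted p = 0.0469, limma), past the threshold, and without control replicate 2 alone -0.25 (adjusted p = 0.407). With the brightness covariate it was 0.05 with all arrays and -0.47 without the 2 (adjusted p = 0.902, limma). In the second of these fits brightness and treatment can hardly be told apart. Tgfb1, the ligand, differed by 0.24 with all arrays (95% interval -0.31 to 0.78) and by -0.06 without the 2. Smad2, its signal transducer, differed by -0.05 (95% interval -0.28 to 0.19).

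Of the collagens, Col4a1, a basement membrane chain, was at 10.04 to 11.68 (median 10.32) in controls and 9.50 to 10.22 (median 9.96) with the antibody. Control replicate 2 was the highest array, and the difference was -0.58 (SE 0.24), or -0.41 (adjusted p = 0.0525, limma) without the 2 arrays. The fibrillar chains Col1a1 (-0.48, 95% interval -1.11 to 0.14), Col1a2 (-0.18, -0.47 to 0.10) and Col3a1 (0.18, -0.16 to 0.51) overlapped between the groups. So did Fn1, fibronectin (0.05, 95% interval -0.55 to 0.65), the connective tissue growth factor Ccn2 (0.09, -0.35 to 0.53) and Umod (-0.13, -0.37 to 0.11). Under median scaling Atp1b1, Fxyd2, Tgfb1, Col3a1, Fn1 and Ccn2 changed sign, to values between -0.27 and -0.01.

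Across 13 gene lists for renal and cardiotonic steroid biology, 338 probes were tested, and 0 passed with all arrays. At an unadjusted p below 0.05 there were 19 higher and 19 lower, which is 11.2% against 14.1% of all probes. The groups overlapped in each of these 38. Among all probes 1.15% were without overlap, which is not a like share, because the 38 were picked by their p. Without the 2 arrays 16 list probes passed (4.73%, against 7.43% of all probes), 8 in each direction. The counts by list below stand beside 14.1% of all probes at an unadjusted p below 0.05, 5.81% higher and 8.27% lower. With the brightness covariate that share was 18.4%, and counts with this covariate are given for part of the lists.

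In the list of TGF-β signalling, 25 probes were tested with a median log2 fold change of -0.05. An unadjusted p below 0.05 was reached by 4 of them, all lower with the antibody, and by 14.1% of all probes. Smad4, the shared partner of receptor-activated Smads, ran from 11.87 to 12.21 (median 11.91) in controls and from 11.35 to 11.94 (median 11.46) with the antibody. The difference was -0.40 (SE 0.11), and it passed without the 2 arrays at -0.43 (adjusted p = 0.0177, limma). The inhibitory Smad7 (-0.59, SE 0.20), the TGF-β target Pmepa1 (-0.29, SE 0.12) and the latent TGF-β binding protein Ltbp2 (-0.49, SE 0.22) were the others. Tgfb2 differed by -0.17 (SE 0.13). With the brightness covariate this list had 1 higher and 2 lower at an unadjusted p below 0.05.

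The list of extracellular matrix and fibrosis held 36 tested probes with a median of -0.09, with 1 higher and 4 lower at an unadjusted p below 0.05. Lox, which cross-links collagen, was at 8.48 to 9.18 (median 8.66) in controls and 7.53 to 8.93 (median 7.93) with the antibody (-0.71, SE 0.20). Its relative Loxl2 differed by -0.64 (SE 0.20), the membrane metalloproteinase Mmp14 by -0.40 (SE 0.17) and the inhibitor Timp2 by 0.30 (SE 0.13). Without the 2 arrays Lox (-0.80, adjusted p = 0.00921, limma), Loxl2 (-0.77), Mmp14 (-0.48) and the fibrillar collagen gene Col5a2 (-0.43) passed, all lower. With the brightness covariate the whole list had 2 higher and 1 lower at an unadjusted p below 0.05.

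Among 16 probes for Na/K-ATPase subunits and regulators the median was 0.05. Prkca, a kinase that phosphorylates the pump, was the lone member with an unadjusted p below 0.05 (-0.44, SE 0.15), and Atp1a4, the subunit known mainly from testis, differed by -0.32 (SE 0.16). In the 27 probes for tubular sodium and water transport the median was 0.13, and 3 members were higher at an unadjusted p below 0.05 and 0 lower. Besides Sgk1 these were Scnn1a, the α subunit of the epithelial sodium channel, at 10.87 to 11.48 in controls and 11.12 to 11.54 with the antibody (0.35, SE 0.12), and Aqp2, the vasopressin-regulated water channel. Aqp2 ran from 9.88 to 12.25 in controls and from 10.72 to 13.12 with the antibody (1.06, SE 0.47), so its spread within each group was wide. The proximal carriers Slc34a1 (0.04, SE 0.15) and Slc9a3 (-0.03, SE 0.16) were close to 0. An unadjusted p below 0.05 was met by 14.1% of all probes. With the brightness covariate this list had 1 higher and 0 lower, and Sgk1 was at 0.31 (unadjusted p = 0.0813, limma).

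The 19 probes of the renin-angiotensin and vasoactive list had a median of 0.11, with the bradykinin receptor Bdkrb2 at 0.30 (SE 0.12), Agtr1a at 0.08 (SE 0.19) and Agt at -0.10 (SE 0.17). At an unadjusted p below 0.05 this list had 1 higher and 0 lower, and 5 higher and 0 lower with the brightness covariate. The receptor gene Mas1 passed without the 2 arrays at 0.41 and differed by 0.19 with them. Inflammation and injury genes, 28 probes, had a median of -0.0034, with Il18 at -0.45 (SE 0.18), Ccl2 at 0.21 (SE 0.46) and Ccl5 at 0.28 (SE 0.20). Krt19, a marker of injured and ductal epithelium, differed by 0.32 and passed without the 2 arrays at 0.47.

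Of 24 immediate early and stress probes, 3 were higher and 1 lower at an unadjusted p below 0.05, with a median of 0.05. With the brightness covariate 1 was higher and 6 were lower, and the median was -0.29. Ddit4, a stress- and glucocorticoid-induced inhibitor of mTORC1, was at 9.19 to 9.98 (median 9.54) in controls and 9.89 to 10.82 (median 10.09) with the antibody (0.58, SE 0.17), and passed without the 2 arrays at 0.71. The small heat shock protein Hspb1 differed by 0.88 (SE 0.28), the flow-responsive factor Klf2 by 0.49 (SE 0.15) and Klf4 by -0.28 (SE 0.12). Jun (-0.17, SE 0.21) and Fos (0.56, SE 0.52) varied more within groups. Of 8 clock probes, 3 had an unadjusted p below 0.05, Cry1 (0.48, SE 0.22), the repressor Nr1d1 (-0.68, SE 0.25) and Nfil3 (-0.36, SE 0.16), and their groups overlapped. Per2 was at -0.19 (SE 0.20) and Per1 at 0.32 (SE 0.25). Cry1 was the clock gene that passed without the 2 arrays, at 0.74.

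Oxidative phosphorylation genes (39 probes, median 0.04) had 1 higher and 1 lower at an unadjusted p below 0.05, Ndufs8 (0.21) and Ndufa6 (-0.24), with Ndufa1 at 0.20 and Ndufa5 at 0.15. Ribosomal protein genes (57 probes, median 0.07) had 4 higher and 1 lower, including Rpl31 (0.36), and Rpl3 and Rpl4 were at 0.02 and 0.01. With the brightness covariate ribosomal protein genes had 10 higher and 0 lower (median 0.21), and oxidative phosphorylation genes 4 higher and 0 lower. Of 24 probes for fatty acid oxidation (median -0.03), Cpt1a, the gate of mitochondrial uptake, was at -0.35 (SE 0.13), Acaa2 at 0.35 (SE 0.15) and Ppargc1a at -0.02. Cpt1a and the fatty acid carrier Cd36 passed without the 2 arrays, both lower. Of 15 cholesterol synthesis probes (median 0.10), Pmvk was at 0.71 (SE 0.26), Mvd at -0.21 (SE 0.09) and Idi1 at -0.05. Among 26 probes for organic ion transport and xenobiotic metabolism (median 0.10), the glutathione transferases Gstm2 (0.73), Gstm1 (0.55) and Gsta4 (0.32) and the cation carrier Slc22a2 (-0.46, SE 0.17) had an unadjusted p below 0.05, and Slc22a5 was at -0.20. These transferase genes are close paralogs, so probes may share signal.

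**Figure D4:**
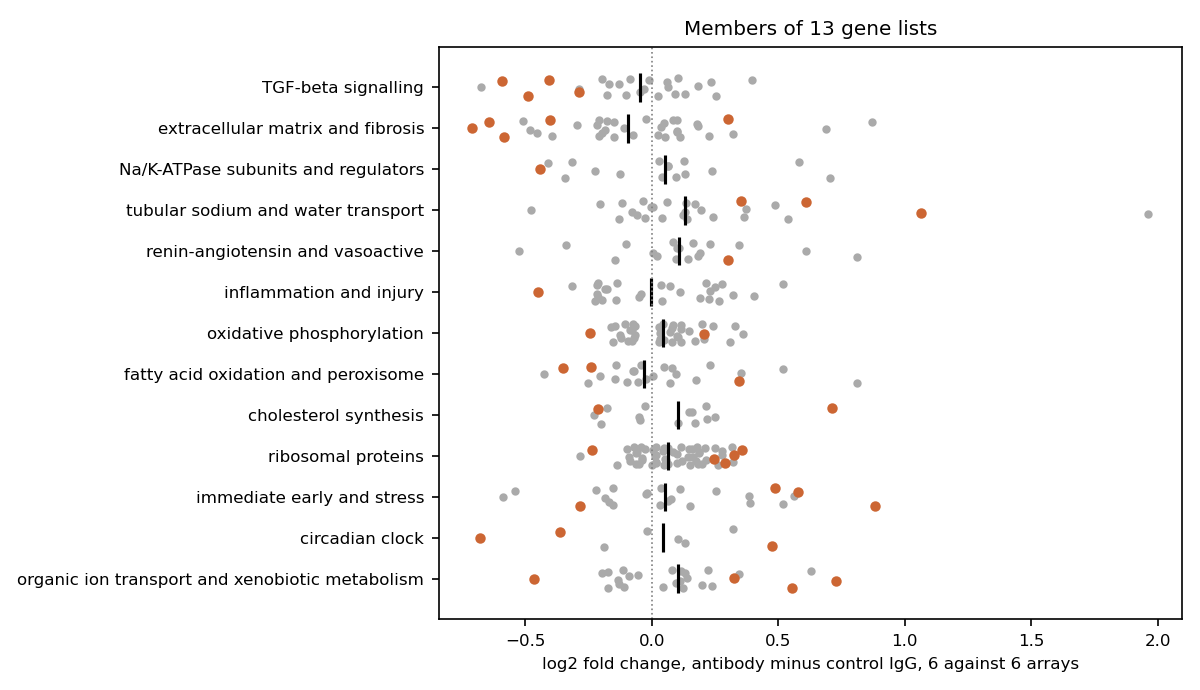
Log2 fold change, antibody minus control IgG, of every tested member of 13 gene lists (1 point per probe, 6 against 6 arrays). Orange points have an unadjusted p below 0.05, grey points do not, black bars are list medians, and no point passed adjustment over all probes. The medians lie between -0.09 and 0.13.

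The widest variation among the 12 kidneys lay within both groups. The genes in this paragraph were picked by their SD over the 12 arrays and are given as a description. Slc14a2, the vasopressin-regulated urea transporter of the inner medullary collecting duct, stood at 5.33 to 5.55 in controls 1, 4 and 5 and antibody 4, and at 9.78 to 12.64 on the other 8 arrays. Its group difference of 1.96 (SE 1.51) was the largest of any named probe and was within this spread. Akr1b1, the aldose reductase that makes sorbitol in the inner medulla, was at 10.77 to 11.04 in the same 4 animals and antibody 6, and at 12.68 to 15.06 in the rest. Gpha2, Lypd2 and Fgfbp1 were likewise low in those 5 animals, with Gpha2 at 5.12 to 5.51 against 8.20 to 11.95. Upk3a, a urothelial plaque protein, ran from 5.12 to 8.81, and its high arrays included antibody 4 (8.09).

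The fixed list of thin limb and inner medullary markers had 6 tested probes, with a mean level per array of 9.51 to 11.63 in controls and 9.36 to 12.12 with the antibody. Its median log2 fold change was 0.46, from -0.37 to 1.96, with 0 members higher and 1 (Slc6a6) lower at an unadjusted p below 0.05. With the mean level of this list as a covariate, 0 probes passed and 1608 had an unadjusted p below 0.05 (15.3%), and the difference in Usp2 was 0.87. Which region of the kidney was taken is not given in the sources used here. Collecting duct principal cell markers (8 probes, median log2 fold change 0.31) had a mean of 9.15 to 10.06 in controls and 9.35 to 10.51 with the antibody, and podocyte markers (3 probes, median -0.41) of 10.64 to 11.56 and 10.49 to 10.99. The podocyte phosphatase Ptpro was at -0.42 (SE 0.14, unadjusted p below 0.05). The part of these markers in the differences of other genes was not tested beyond the covariate.

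Genes of other tissues also varied by animal. Scd and Thrsp, lipogenic enzymes and factors abundant in fat, and Car3, a carbonic anhydrase of fat and muscle, were highest in controls 2 and 6 and antibody 3 and 4. Car3 was at 10.87 to 11.45 in those 4 animals and at 7.09 to 9.42 in the other 8. Adipose markers had a mean of 7.50 to 9.64 in controls and 8.11 to 9.49 with the antibody. The β-globin Hbb-b1 was at 14.09 in control 1, the brightest array, and at 9.58 to 12.54 in the others, and the 3 blood markers had a mean of 9.32 to 12.56 in controls and 10.85 to 11.75 with the antibody. Immune markers (9 probes) ran from 9.05 to 9.29 and from 9.02 to 9.42, proximal tubule markers (11 probes) from 12.81 to 13.20 and from 12.77 to 13.32. The cardiac muscle list had 1 tested probe of 5, and adrenal cortex markers had a mean of 6.57 to 7.75 and 6.34 to 6.99.

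**Figure D5:**
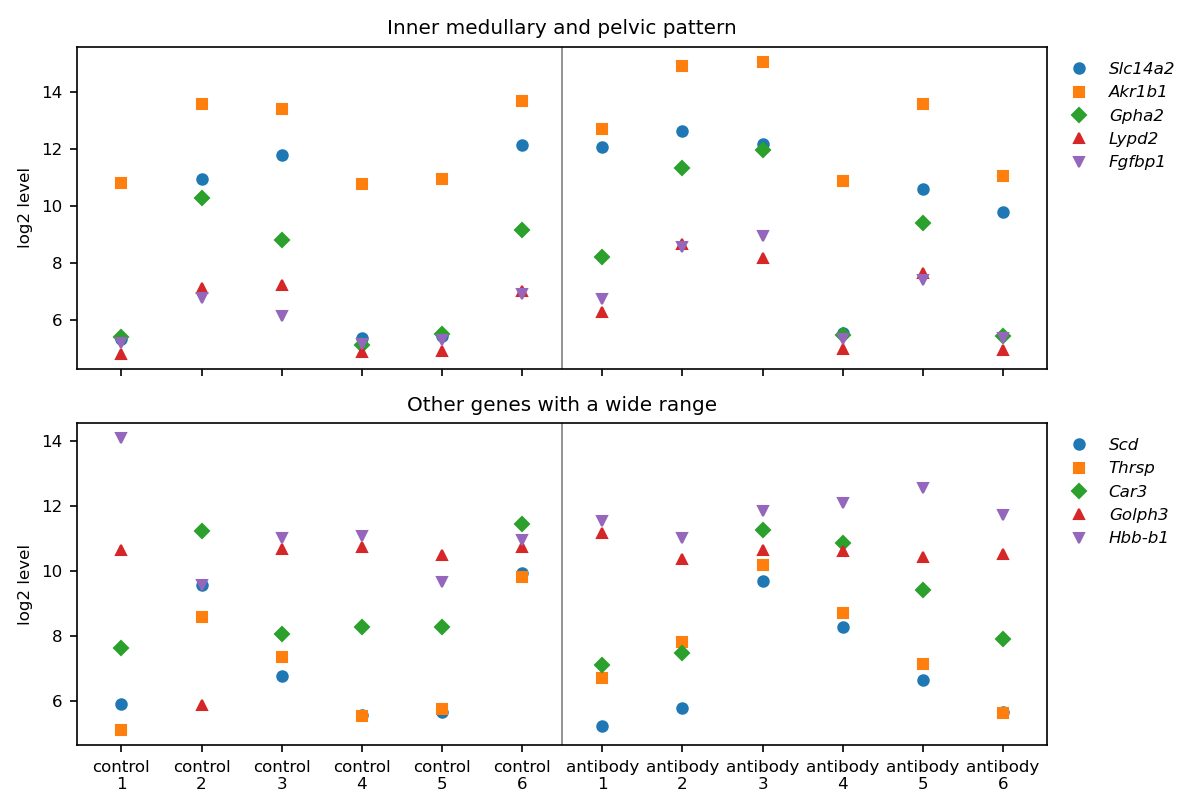
Normalized log2 level of 10 genes of wide range on each of the 12 arrays, controls left and antibody right of the grey line. Slc14a2 is near 5 in controls 1, 4 and 5 and antibody 4, Scd, Thrsp and Car3 are high in controls 2 and 6 and antibody 3 and 4, and Golph3 is low in control 2 alone.

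The antibody's effect on low salt was compared with its effect on high salt (8% NaCl), in a model of all 24 kidney arrays. The difference between the effects passed in 128 of 11534 probes (1.11%), 43 with the low-salt effect more positive (0.373%) and 85 more negative (0.737%). The split was 19 and 299 with median scaling and 117 and 123 with the brightness covariate. The fitted effects had opposite signs in 125 of the 128, which were chosen for a large difference, and in 53.5% of all probes. Of the 128, 71 passed for the effect on high salt, as did 314 of all probes (2.72%). In this fit 0 of all probes passed for the effect on low salt, with a smallest adjusted p of 0.05003, and 11 passed when the fit was limited to the 10518 probes above. The number of probes whose effect differed between diets, 128 with all arrays, moved when 1 array was left out. It lay between 24, when antibody replicate 3 on low salt was dropped, and 364, when control replicate 3 on high salt was dropped.

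Of the 30 probes named above, 2 of the higher (Gatd1 and Frmd4a) and 9 of the lower passed this test. They were chosen for their low-salt effect on arrays that form part of this contrast, so the count is raised by the choice. Spetex2b differed by -1.16 on low salt and 0.65 on high salt (adjusted p = 0.0151, limma), Dcaf10 by -0.68 and 0.49 (adjusted p = 0.0151), and Rnf138 by -1.11 and 0.20 (adjusted p = 0.0403). For Usp2 (0.85 and 0.24, adjusted p = 0.197) and Sgk1 (0.61 and -0.13, adjusted p = 0.171) the difference did not pass. Col3a1 was at 0.18 on low salt and -0.98 on high salt (adjusted p = 0.0597), and Tgfb1 at 0.24 and -0.84 (adjusted p = 0.114). Of the 338 list probes 7 passed, against 1.11% of all probes. Timp2 (0.30 and -0.81), Gstm1 (0.55 and -1.09) and Atp1a4 (-0.32 and 1.10) had an adjusted p of 0.0151 in limma. The others were the bicarbonate cotransporter Slc4a4 (-0.04 and -1.99), Klf2 (0.49 and -0.50), Slc22a2 (-0.46 and 0.66) and Acaa2 (0.35 and -0.51). Postn, of the matrix list, was detected on 1 of the 12 low-salt arrays and so is outside the 338. It passed at 0.08 on low salt and -1.42 on high salt (adjusted p = 0.0403, limma). Lox, at -0.71 and -0.65, did not (adjusted p = 0.958).

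In the left ventricles of the same low-salt animals, 0 of 11208 probes passed for the antibody (0%), with 630 at an unadjusted p below 0.05 (5.62%) and a smallest adjusted p of 0.0702 in limma. The kidney minus ventricle difference of each animal gave 0 passing probes as well (smallest adjusted p 0.340) and 874 at an unadjusted p below 0.05 (7.80%). All 30 named probes were tested and 0 passed. With both tissues normalized together, Usp2 was at 0.91 in kidney and -0.16 in ventricle (difference 1.07, adjusted p = 0.340, limma). Fmo2 was at 0.80 in kidney and 0.83 in ventricle on the same scale, a difference of -0.03 (SE 0.16).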

How the data were processed

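Per the labels' protocols, labelled RNA was transcribed from oligo-dT-primed cDNA, and the submitters' processing notes list GenomeStudio 2011.1. The first deposited table holds probe intensity on a linear scale, not normalized between arrays, and each deposited intensity has a detection p-value in steps of 0.00121. A second deposited table holds a score per probe, which equals the z-score of log10 intensity within an array to within 0.00649. Probes were named through the platform's annotation, 13752 by a current Entrez identifier and 41 by the platform's symbol.

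Background correction and quantile normalization of the 24 kidney arrays used neqc (limma 3.58.1, R 4.3.3, offset 16). Probes detected (p below 0.05) on 6 or more low-salt arrays were fitted with lmFit and eBayes, with the spread from these 12 arrays and Benjamini-Hochberg adjustment over all tested probes. The scripts were tested on simulated data. The animal number in the titles ties kidney to ventricle, and these tissue differences used arrays of both tissues normalized together. Detection counts rest on the deposited detection p-values, which normalization does not change. No source used here gives the chip of an array, and chips could not be fitted as a batch. The number of arrays limits the precision. The members and lists were chosen with earlier results of these data known. The rule for named genes took the 15 smallest p-values per direction, because fewer than 6 probes passed, plus a fixed set of genes, the list members past the threshold and the first 2 tested members of each list, with the brightest probe where a gene had several. List members at an unadjusted p below 0.05 or past the threshold without 2 arrays were added to the text. Some of the fixed genes are not reported here.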

Additional observations from a re-analysis of the deposited data

Results flagged for a closer look

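Values were flagged where 1 of 6 samples of a group lay apart from the other 5 by Dixon's criterion, which chance meets in about 1 of 20 groups. Of 10 array measures by group, 4 were flagged. Control replicate 1 had a log2 median intensity of 8.27, with the other controls at 7.77 to 7.91. Control replicate 2 lay at 71.8 on the first principal component, and the other controls at -7.22 to -2.78. In the antibody group, replicate 1 had 10925 detected probes against 10077 to 10357, and replicate 2 lay at 6.05 on the first component against -12.4 to -7.20.

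Of 84 groups of single-gene values, 5 were flagged, close to the number chance gives. Frmd4a was at 5.56 in control replicate 3 and at 5.79 to 5.87 in the other controls. In antibody replicate 1, Prmt6 was at 7.50 against 7.90 to 7.96, and Nrg1 at 6.19 against 5.28 to 5.62. In control replicate 2, Fxyd2 was at 13.88 against 14.39 to 14.64, and Col4a1 at 11.68 against 10.04 to 10.38.

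The antibody's effect differed between diets in 128 kidney probes by the test of the difference itself.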

How the results depend on the processing

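With all 12 arrays 0 probes passed, and the count was also 0 with cyclic loess, no background correction, the authors' scores, normalization over these 12 arrays, no filter, a detection p below 0.01 on all 12, a variance trend, robust eBayes, the brightness covariate and the inner medullary marker covariate. The last of these, and the brightness covariate without the 2 arrays, were chosen after seeing the data. The count was 635 with median scaling, 11 with 1 spread shared by 24 arrays, 881 with array weights and 781 without control replicate 2 and antibody replicate 1, and between 0 and 62 when 1 array was left out. Members of the gene lists passed in 10, 20 and 16 cases with median scaling, array weights and without the 2 arrays, and in 0 to 1 when 1 array was left out. The deposited series matrix held the same values as the score table and was not run. With the replicate number as a block 0 probes passed and the interaction count was 27; the numbers did not pair the samples, since pair correlations ran from -0.28 to 0.41 and 1 antibody array was best matched by its own number.

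The interaction count was 128, 318 with median scaling and 240 with the brightness covariate. It lay between 24 and 364 when 1 array was left out, and moved by over 1.5 times in 19 of 24 such fits. The kidney minus ventricle count was 0 throughout. Leaving out 1 array gave differences of -0.36 to -0.26 for the log2 median intensity, -0.67 to -0.43 for the log2 95th percentile, which did not pass without control replicate 1, and -372 to -185 detected probes. No named gene that passed in any fit had the opposite sign in the main comparison. The cause of these shifts was not tested. Having 6 arrays per group limits precision, and signal near background limits probes that were not detected on every array of a group, such as Frmd4a, Nrg1 and Spetex2d.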
